A study of Mus musculus with 29 samples.

Results

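The smooth muscle microRNAs miR-143 and miR-145a were followed through the mature strands of both hairpins, mmu-miR-143-3p, mmu-miR-143-5p, mmu-miR-145a-5p and mmu-miR-145a-3p. The members were chosen by name and make up 4 of the 695 miRNAs that have a value in every library, out of 1183 miRNAs in the table. Small RNA was sequenced from serum and from tibialis anterior, a muscle at the front of the shin, of C57BL/6 mice. Old serum (4 libraries) and old muscle (5) came from mice of 24 months. Disuse serum (5) and disuse muscle (5) came from mice of 6 months in a model of muscle wasting by disuse, and young serum (5) and young muscle (5) from control mice of 6 months. How disuse was imposed and for how long is not given in the sources used here. All groups share the strain, and the labels name no transgene or drug in any of them. No label states that libraries of a group come from separate animals, so a p-value here is set against the spread of libraries, part of which may be technical.

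MicroRNAs are short RNAs that guide Argonaute proteins to messenger RNAs and repress them. miR-143 and miR-145 are transcribed together from a single gene cluster under serum response factor and myocardin, and they are best known from the smooth muscle of vessel walls and gut, where they hold cells in a contractile state. miR-145 represses Klf4 and Klf5, transcription factors of the dedifferentiated, proliferating state. A hairpin is cut into a 5p and a 3p strand. Usually a single strand is kept as the guide while the other, the passenger, is degraded, and the usual guides are miR-143-3p and miR-145-5p. In whole muscle these miRNAs come from a mixture of cells, and fewer cells of a type cannot be told apart from less RNA per cell.

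The miR-199 and miR-214 strands, which are abundant in fibroblasts and in the mural cells around vessels, were taken as a comparison. Mature sequences of those described below are from RefSeq (GRCm38.p6) and are shown because a pair of them cannot be separated by sequence. Capitals mark the seed, bases 2 to 8, with which a miRNA finds its targets.
mmu-miR-199a-3p: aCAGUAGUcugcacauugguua
mmu-miR-199b-3p: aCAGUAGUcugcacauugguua
mmu-miR-214-3p: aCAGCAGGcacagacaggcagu
miR-199a-3p lies at chr1:162217883-162217904 on the plus strand (Mir199a-2) and at chr9:21496498-21496519 on the minus strand (Mir199a-1). miR-199b-3p lies at chr2:32318524-32318545 on the plus strand, and miR-214-3p at chr1:162223438-162223459 on the plus strand. miR-199a-3p and miR-199b-3p have the same letters throughout, so their reads cannot be told apart, yet the deposited table gives them different counts. The split between them is therefore uncertain, and the values of this pair given below are not separate observations.

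Total counts were 45176 to 309133 per serum library and 254624 to 5943445 per muscle library. The medians were 2825032 in old muscle, 2298437 in disuse muscle and 535754 in young muscle, so most young muscle libraries were shallower. Levels are given as CPM, which are counts scaled to the library total. A count of 0 allows up to 3 counts of the total, which is 9.7 to 66.4 CPM in serum and 0.505 to 11.8 CPM in muscle. Such limits cover counting error only. Skeletal muscle miRNAs (miR-1a, miR-133, miR-206, miR-208 and miR-499) summed to 649.9 to 4751 CPM in serum and 377159 to 524064 CPM in muscle. Nearly all of the muscle sum was miR-133a-3p, at 375519 to 521908 CPM, while miR-1a-3p held 397 to 1419 CPM. The liver miRNA miR-122-5p stood at 202 to 2838 CPM in serum and at 0 to 5.98 CPM in muscle, so each source carried the miRNAs of its label.

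mmu-miR-143-3p, the guide strand of miR-143, was found at similar levels in all 6 groups. In serum it held 2775, 1826, 8042 and 5999 CPM in old mice, 7346, 2987, 4518, 8495 and 4008 CPM in disuse mice, and 10691.5, 6346, 4985, 4212 and 2470 CPM in young mice. In muscle it held 6939, 4121, 4807, 4095 and 4654 CPM in old mice, 4289, 5688, 6366, 4353 and 5232 CPM in disuse mice, and 8254, 6647, 4333, 5771 and 6245 CPM in young mice. Every pair of groups compared overlapped, and serum libraries were the more scattered. The means were 4660 ± 2876 CPM in old serum (SD, n = 4), 5471 ± 2339 CPM in disuse serum and 5741 ± 3102 CPM in young serum (SD, n = 5 each). They were 4923 ± 1170 CPM in old muscle, 5186 ± 887 CPM in disuse muscle and 6250 ± 1421 CPM in young muscle (SD, n = 5 each). Ordered by level, the groups ran young muscle, young serum, disuse serum, disuse muscle, old muscle and old serum, and no neighbours in that order differed by more than the larger of their SDs. The strand ranked between 20 and 39 among the miRNAs of a library.

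mmu-miR-145a-5p, the guide strand of miR-145a, was among the most abundant miRNAs of muscle and was scarce in serum. In serum it held 465, 180, 328 and 841 CPM in old mice, 459, 351, 454, 252 and 412 CPM in disuse mice, and 307, 245, 305, 158 and 218 CPM in young mice, on 15 to 80 counts per library. In muscle it held 9181, 20338, 9682, 47679 and 5525 CPM in old mice, 14917, 6428, 11633, 10334 and 6454 CPM in disuse mice, and 9361, 11072, 14175, 13585 and 6423 CPM in young mice. No serum library reached any muscle library, and the groups of each source overlapped. Old muscle 4 stood above every other library, where the strand ranked 4 among all miRNAs, and old muscle 2 came next. The means were 453 ± 283 CPM in old serum (SD, n = 4), 386 ± 86.2 CPM in disuse serum and 247 ± 62.6 CPM in young serum (SD, n = 5 each). In muscle they were 18481 ± 17232 CPM in old, 9953 ± 3615 CPM in disuse and 10923 ± 3177 CPM in young mice (SD, n = 5 each). Ordered by level, the groups ran old muscle, young muscle, disuse muscle, old serum, disuse serum and young serum. Of these neighbours, disuse muscle and old serum differed by more than the larger SD without overlap, disuse and young serum by more than the larger SD with overlapping ranges, and the others by less.

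**Figure D1:**
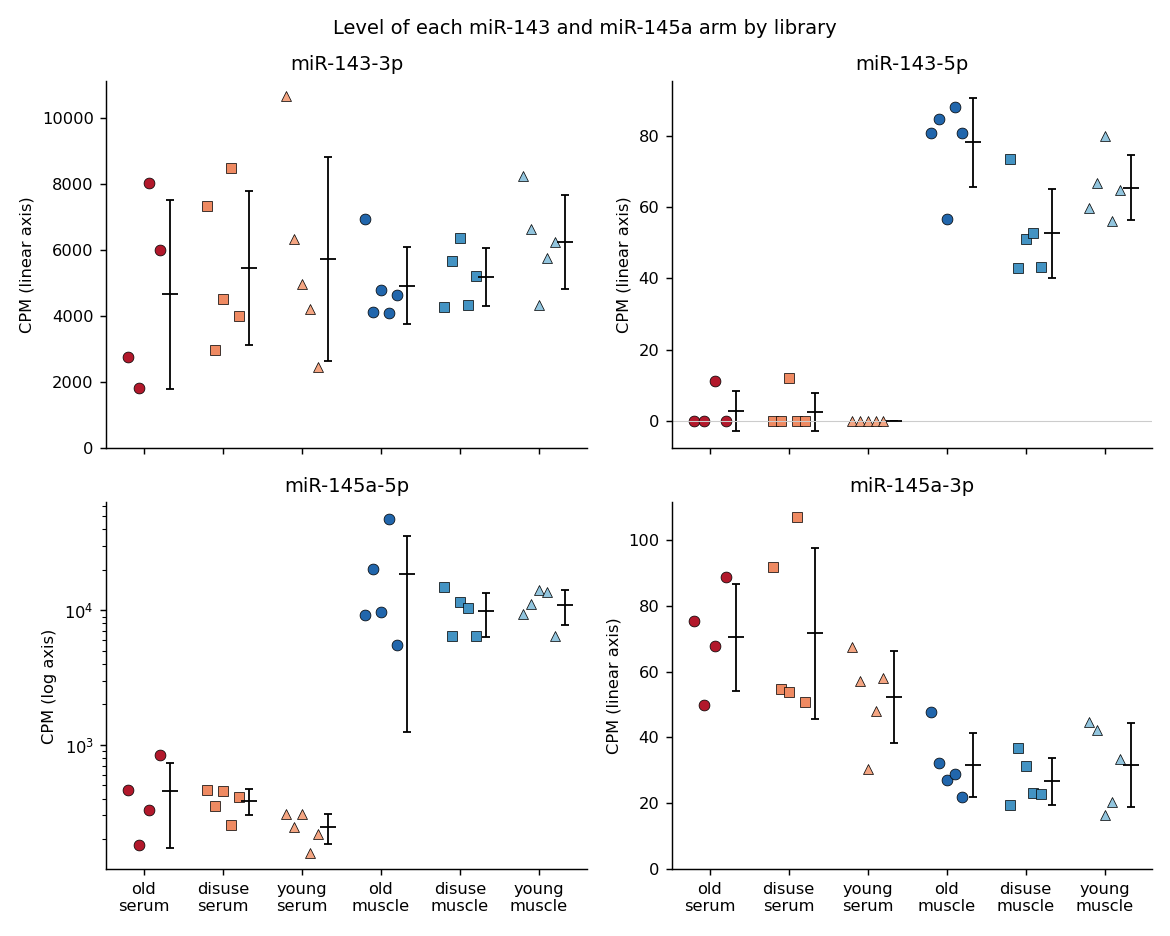
CPM of the 4 strands in each library (points), with the group mean and SD beside them; the axis of miR-145a-5p is logarithmic and the others are linear. miR-143-3p overlaps between serum and muscle, miR-145a-5p separates them with serum lower, and the mean of miR-145a-3p is higher in serum in old, disuse and young mice.

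The passenger strands were rare. mmu-miR-145a-3p held 75.3, 49.9, 67.8 and 88.5 CPM in old serum, 91.8, 54.6, 53.8, 107 and 50.8 CPM in disuse serum, and 67.3, 57, 30.5, 48.1 and 58.1 CPM in young serum, on 3 to 33 counts per library. In muscle it held 47.8, 32.4, 27.3, 28.9 and 21.9 CPM in old mice, 19.4, 36.7, 31.4, 23.1 and 22.8 CPM in disuse mice, and 44.7, 42.4, 16.4, 20.5 and 33.6 CPM in young mice. Old serum lay wholly above old muscle and disuse serum wholly above disuse muscle, while young serum and young muscle overlapped. The means were 70.4 ± 16.1 CPM in old serum (SD, n = 4), 71.5 ± 25.9 CPM in disuse serum and 52.2 ± 13.9 CPM in young serum (SD, n = 5 each). In muscle they were 31.6 ± 9.79 CPM in old, 26.7 ± 7.14 CPM in disuse and 31.5 ± 12.7 CPM in young mice (SD, n = 5 each). By level, old serum stood above young serum and young serum above old muscle by more than the larger SD, though the ranges of each pair overlapped, and the other neighbours differed by less.

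mmu-miR-143-5p, the passenger strand of miR-143, was found almost wholly in muscle at this depth. It held 80.8, 84.7, 56.6, 88.2 and 80.9 CPM in old muscle, 73.6, 42.9, 51.1, 52.6 and 43.2 CPM in disuse muscle, and 59.6, 66.8, 79.9, 56 and 64.9 CPM in young muscle. The means were 78.2 ± 12.5, 52.7 ± 12.5 and 65.4 ± 9.13 CPM in old, disuse and young muscle (SD, n = 5 each), so that old stood above young muscle and young above disuse muscle by slightly more than the larger SD, while their ranges overlapped. In serum there were 2 counts in old mice, both in old serum 3, 2 counts in disuse mice, both in disuse serum 3, and 0 in young mice, so the strand was not tested between serum groups.

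Against young muscle, old muscle showed no change in any of the 4 strands that passed the test. The log2 fold changes of edgeR's quasi-likelihood test were 0.68 ± 0.36 for miR-145a-5p (SE, adjusted p = 0.261), -0.34 ± 0.21 for miR-143-3p (adjusted p = 0.37) and 0.24 ± 0.20 for miR-143-5p (adjusted p = 0.517). miR-145a-3p was at -0.02 ± 0.29 (adjusted p = 0.984) and changed sign under several alternatives. Of 341 miRNAs tested, 5.87% were called in this comparison, and 0 of the 4 members were, with 0 at an unadjusted p under 0.05 and 0 by DESeq2 or limma-voom. Without old muscle 4 the estimate for miR-145a-5p was 0.11 (adjusted p = 0.86). That library had a miR-133a-3p share of 38.1%, the second lowest of the 15 muscle libraries. Its 2985 CPM of miR-155-5p was the highest of them, and other miRNAs of leukocytes are not given here by library. The part of that share and of miR-155-5p in the result was not tested.

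In disuse muscle none of the 4 strands passed the test against young muscle either. The estimates were -0.19 ± 0.21 for miR-143-3p (SE, edgeR, adjusted p = 0.836), -0.25 ± 0.21 for miR-143-5p (adjusted p = 0.776), -0.05 ± 0.36 for miR-145a-5p (adjusted p = 0.987) and -0.22 ± 0.30 for miR-145a-3p (adjusted p = 0.87). The background was 0.293% of 341 miRNAs called, and 0 of the 4 members were called by edgeR, DESeq2 or limma-voom, with 0 at an unadjusted p under 0.05. Both contrasts use the same young libraries, so they are not independent of each other.

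Between old and disuse muscle no strand passed the test. miR-143-5p stood above the disuse median in 5 of 5 old libraries, at a log2 fold change of 0.49 ± 0.20 (SE, edgeR, unadjusted p = 0.0219), but missed the threshold after adjustment (adjusted p = 0.202). Without disuse muscle 1 the difference was 0.69 and passed (edgeR, adjusted p = 0.0456). miR-145a-5p was at 0.73 ± 0.36 (adjusted p = 0.367) and at 0.16 without old muscle 4, miR-145a-3p at 0.19 ± 0.28 (adjusted p = 0.801) and miR-143-3p at -0.14 ± 0.21 (adjusted p = 0.8). The background was 3.52% called, and 0 of the 4 members were called by edgeR, DESeq2 or limma-voom, with 1 at an unadjusted p under 0.05, as had 48 of all 341 miRNAs. These libraries are the ones of the contrasts above.

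In serum, miR-145a-5p had positive estimates against young serum that did not pass the test. The log2 fold change was 0.81 ± 0.34 in old serum (SE, edgeR, unadjusted p = 0.0304, adjusted p = 0.164), with 3 of 4 libraries above the young median, and ranked 11 from the highest of 165 miRNAs. Without old serum 4 it was 0.44 (adjusted p = 0.417). In disuse serum it was 0.68 ± 0.32 (edgeR, unadjusted p = 0.046, adjusted p = 0.38), with 5 of 5 libraries above the young median, and ranked 3 from the highest. These contrasts share the young serum libraries. Deeper serum libraries tended to hold less miR-145a-5p, with Pearson's r = -0.56 and Spearman's rho = -0.57 between its log2 CPM and the log2 total over 14 libraries (permutation p = 0.0374 and 0.0376). This missed the threshold after adjustment over 16 relations (adjusted permutation p = 0.199 and 0.15), and r was -0.42 without the 2 libraries farthest from the median total and -0.76 on deviations from the group means. Among the 165 serum miRNAs the r of -0.56 was 13 from the lowest, and the median r was 0.02. The part of depth in the group estimates was not tested.

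For the other strands no serum comparison passed the test. miR-145a-3p was at 0.34 ± 0.35 in old against young serum (SE, edgeR, adjusted p = 0.652) and at 0.38 ± 0.31 in disuse against young serum (adjusted p = 0.705). miR-143-3p was at -0.29 ± 0.36 (adjusted p = 0.676) in old against young serum. In disuse against young serum it was at -0.07 ± 0.33 (adjusted p = 0.968) and was positive with DESeq2's size factors. Between old and disuse serum the estimates were -0.23, 0.13 and -0.05 for miR-143-3p, miR-145a-5p and miR-145a-3p. The background was 9.7% called in old against young, 0% in disuse against young and 2.42% in old against disuse serum. None of the 3 members tested was called by edgeR, DESeq2 or limma-voom in any of them, miR-145a-5p alone having an unadjusted p under 0.05 (against young in both). Of all 165 miRNAs, 38 had an unadjusted p under 0.05 in old against young serum. In disuse against young serum 20 did, while edgeR, DESeq2 and limma-voom called 0.

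**Figure D2:**
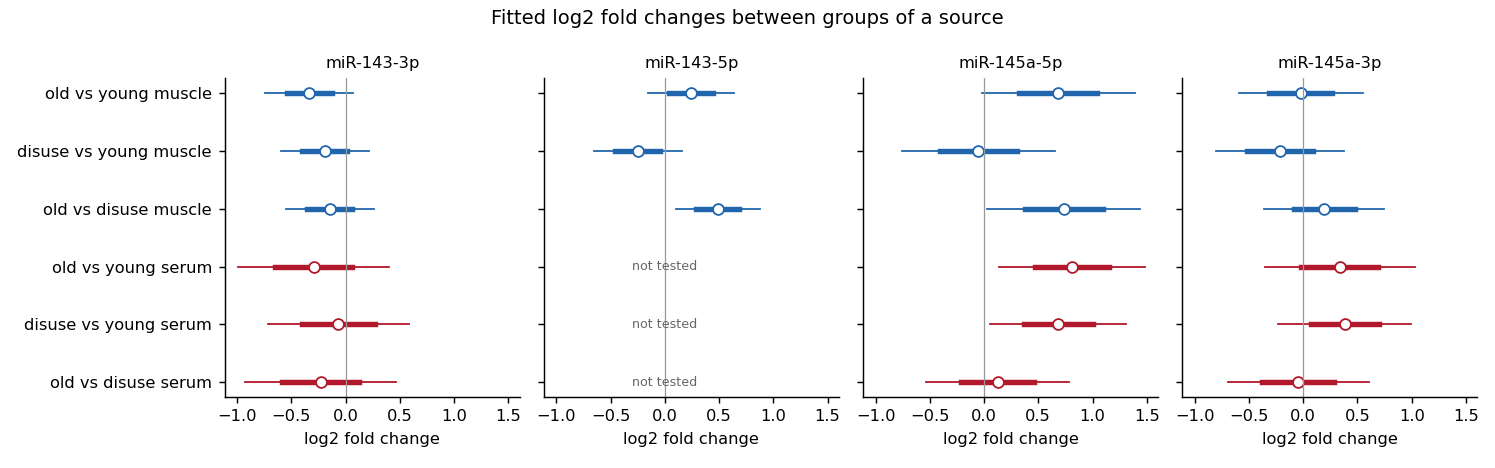
Log2 fold changes of the 4 strands between groups of a source (circles), with 1 SE (thick bars) and the 95% normal interval (thin bars); muscle is blue and serum red. The intervals of miR-145a-5p in the serum comparisons with young and of miR-143-5p in old against disuse muscle lie above 0, but none passed after adjustment. That of miR-145a-5p in old against disuse muscle also lies above 0, though its unadjusted p by edgeR was 0.0528.

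The strands of miR-145a did not go the same way between serum and muscle. miR-145a-5p was 57.2-fold lower in old serum than in old muscle (log2 -5.84 ± 0.56, SE, edgeR, adjusted p = 6.62e-09), 35.5-fold lower in disuse serum than in disuse muscle (-5.15 ± 0.29, adjusted p = 4.16e-11) and 63-fold lower in young serum than in young muscle (-5.98 ± 0.34, adjusted p = 4.33e-12). After thinning to the shallowest library the old value was -4.94. miR-145a-3p had no such drop. It was at 0.66 ± 0.38 in old (adjusted p = 0.122) and 0.15 ± 0.45 in young mice (adjusted p = 0.773), and was higher in disuse serum by 0.96 ± 0.24 (adjusted p = 0.00147). These are shares of the counted miRNAs, and extraction and input differed between the sources in every library. The median log2 fold change of all miRNAs tested was -0.87 in old, -0.36 in disuse and -0.34 in young mice.

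miR-143-3p was close to even between the sources, and its call depended on the scaling. It was at -0.57 ± 0.32 in old (SE, edgeR, adjusted p = 0.118), -0.44 ± 0.20 in disuse (adjusted p = 0.0496) and -0.74 ± 0.33 in young mice (adjusted p = 0.0479). With library totals it was at 0.08 in disuse (adjusted p = 0.769) and -0.12 in young mice (adjusted p = 0.761), so no direction is given although the strand is counted among the calls below. miR-143-5p passed the filter on low counts only through muscle, so no test of it is given. Its CPM ranges in serum and muscle did not overlap in any of the 3. It could still reach 66.4 CPM in the shallowest old serum library, whose count was 0, above its 56.6 CPM in old muscle 3. Summed over the libraries of a group it was 21.8-fold lower in old serum (exact 95% Poisson interval 6.04 to 180.1), 24.1-fold lower in disuse serum (6.68 to 199.1) and at least 16.8-fold lower in young serum, the last taken at 3 counts over the group. These intervals cover counting error only, and the 2 counts of old and of disuse serum each come from a single library. Of all miRNAs tested, 69.3% were called in old, 86.5% in disuse and 76.3% in young mice, so being called was usual. Of the 3 strands that passed the filter in serum as well, 1 was called in old, 3 in disuse and 2 in young mice.

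**Figure D3:**
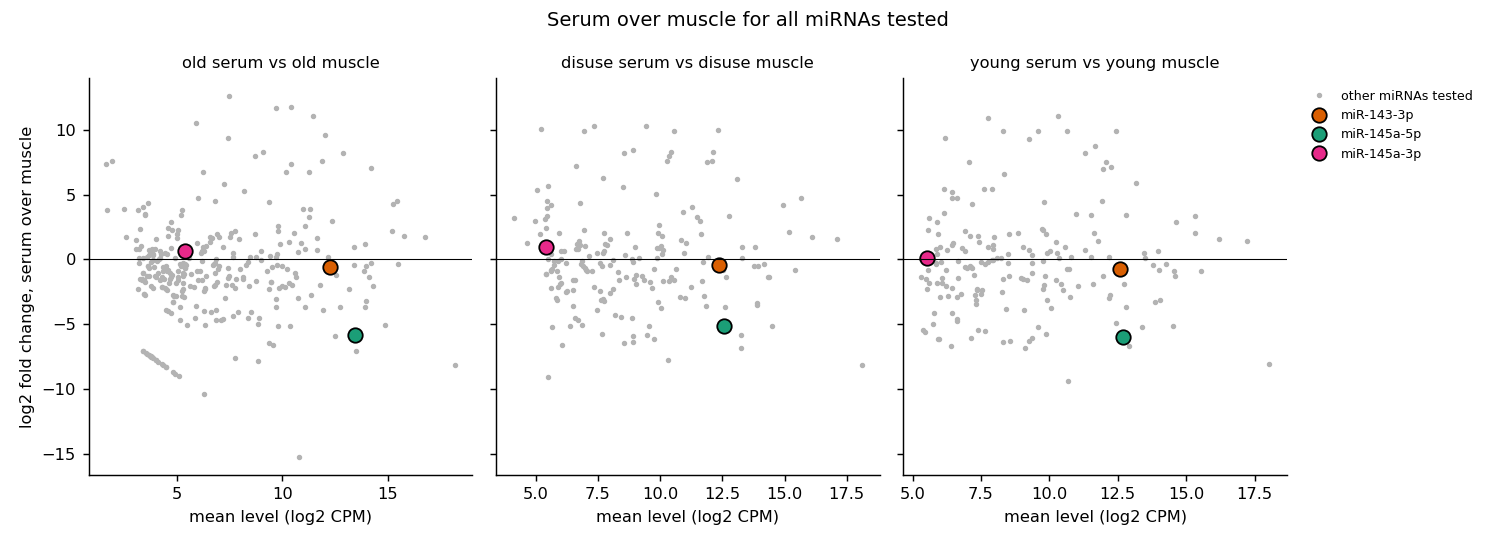
Log2 fold change of serum over muscle against mean level (log2 CPM) for every miRNA tested except miR-143-5p, with 3 strands in colour. miR-145a-5p lies far below 0 in the 3 panels while miR-143-3p and miR-145a-3p lie near it; the grey diagonal row at the lower left of the old panel is of miRNAs at 0 in old serum, whose fitted values are no measure of size.

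No strand's change against young passed a test of its difference between serum and muscle. The interaction was 0.17 ± 0.56 for miR-145a-5p, 0.46 ± 0.49 for miR-145a-3p and 0.15 ± 0.44 for miR-143-3p with age (SE, edgeR, adjusted p = 0.891, 0.655 and 0.883). With disuse it was 0.92 ± 0.54, 0.82 ± 0.46 and 0.34 ± 0.42 (adjusted p = 0.669, 0.646 and 0.949). The background was 0.83% of 241 miRNAs called with age and 0% with disuse, where 24 had an unadjusted p under 0.05 and DESeq2 and limma-voom called 0. No interaction is given for miR-143-5p, whose serum counts are nearly all 0. The 95% intervals for miR-145a-5p ran from -0.93 to 1.27 with age and from -0.13 to 1.97 with disuse.

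A ratio of strands within a library does not depend on its total. With 0.5 added to each count, miR-145a-5p had 5.77, 3.52, 4.68 and 8.56 counts per count of miR-145a-3p in the old serum libraries, against 191.8, 623, 353, 1629 and 251 in old muscle. In the disuse libraries it had 4.88, 6.07, 8.05, 2.34 and 7.74 in serum, against 758.5, 175, 348.5, 444 and 281 in muscle. In the young libraries it had 4.37, 4.14, 8.71, 3.21 and 3.44 in serum, against 201, 260, 814, 633 and 190.0 in muscle. Over all libraries the ratio was 2.34 to 8.71 in serum and 175 to 1629 in muscle, with no overlap. Geometric means were 5.34 in old serum and 444 in old muscle, 5.33 in disuse serum and 357 in disuse muscle, and 4.45 in young serum and 348 in young muscle. The differences on the log2 scale were -6.38 in old (exact permutation p = 0.0159), -6.06 in disuse and -6.29 in young mice (exact permutation p = 0.00794 each), which are the smallest p these group sizes allow. After adjustment over 21 ratio tests they were 0.037, 0.0278 and 0.0278 by the exact permutation test. With any library left out, the old comparison no longer passed (difference -6.68 to -5.91, exact permutation, adjusted p from 0.0667), because the smallest p it can reach is then larger. By counts, the 3p strand made up 16.3% of miR-145a counts in old serum against 0.261% in old muscle, 17.4% against 0.317% in disuse and 18.6% against 0.365% in young mice.

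The ratio of the guide strands also separated the sources. miR-143-3p had 5.91 to 34.5 counts per count of miR-145a-5p in serum and 0.0859 to 0.972 in muscle, with no overlap, so the guide strand of miR-145a was the less abundant of the pair in every serum library and the more abundant in every muscle library. The log2 differences were 4.83 in old (exact permutation p = 0.0159, adjusted p = 0.037), 4.62 in disuse and 5.17 in young mice (exact permutation p = 0.00794, adjusted p = 0.0278 each). With any library left out the old difference was 4.32 to 5.14 and did not pass (exact permutation, adjusted p from 0.0667).

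For miR-143 the ratio of 3p to 5p was bounded by the zeros of serum. Summed over a group there were 1196 counts of 3p per 5p count in old serum (exact 95% Poisson interval 330.9 to 9872) against 70.2 in old muscle. There were 2878 in disuse serum (797 to 23760) against 101 in disuse muscle, and at least 1476 in young serum against 95.5 in young muscle. Between old and young muscle the ratio differed by -0.58 on the log2 scale (exact permutation p = 0.0635, adjusted p = 0.121), and without young muscle 3 by -0.78 (exact permutation, adjusted p = 0.0333). None of the other tests of age or disuse on the 3 ratios passed after adjustment.

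**Figure D4:**
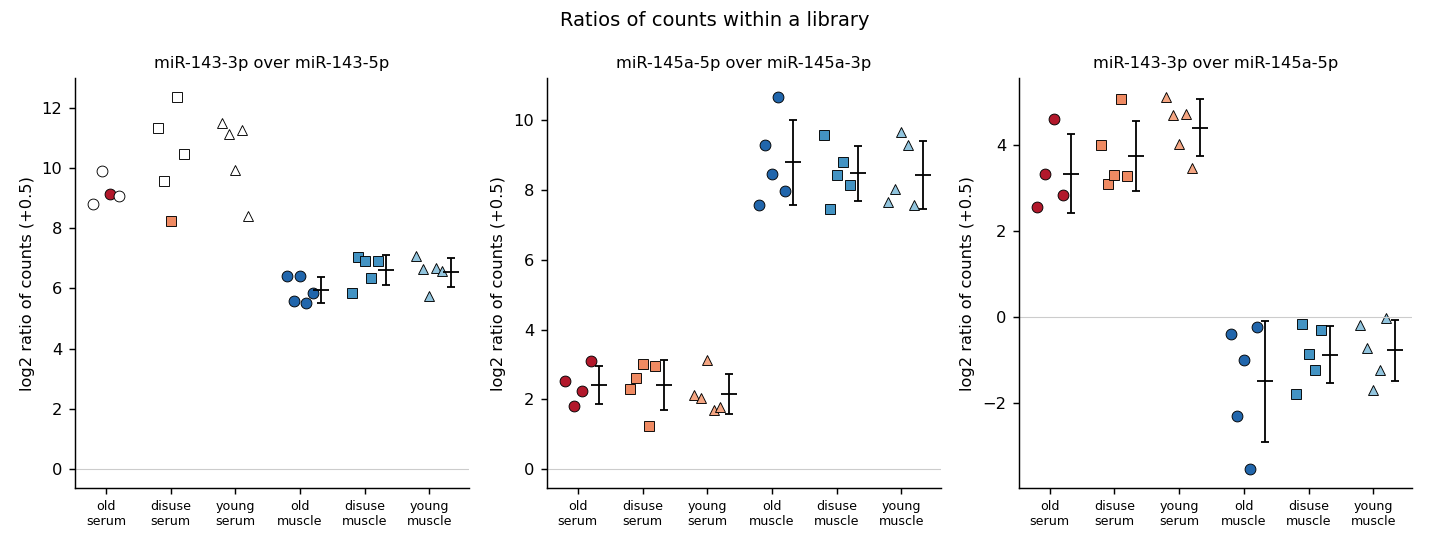
Log2 ratios of counts (0.5 added to both) in each library, with group mean and SD where no library of the group has 0 counts in the lower strand; open symbols have 0 counts of miR-143-5p. The ratio of miR-145a-5p to miR-145a-3p and that of miR-143-3p to miR-145a-5p separate every serum library from every muscle library.

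Across the 15 muscle libraries miR-143-3p was higher where the passenger strand of its neighbour was higher. Pearson's r with miR-145a-3p was 0.75 and Spearman's rho 0.73 (permutation p = 0.00164 and 0.00257, adjusted p = 0.0262 and 0.0411 over 16 relations). It was 0.76 without the 2 libraries farthest from the median and 0.84 on deviations from the group means. With miR-145a-5p, from the same hairpin as miR-145a-3p, r was -0.61 and rho -0.60 (permutation p = 0.0124 and 0.0212, adjusted p = 0.0992 and 0.114), and -0.49 without the 2 farthest libraries. The strands of miR-145a had an r of -0.26 and a rho of -0.33 with each other (permutation p = 0.357 and 0.239, adjusted p = 0.624 and 0.546), and -0.35 without the 2 farthest libraries. Over 14 serum libraries miR-143-3p had an r of 0.11 and a rho of -0.05 with miR-145a-3p (permutation p = 0.732 and 0.878, adjusted p = 0.859 and 1), and 0.27 without the 2 farthest libraries. With miR-145a-5p these were -0.08, -0.39 (permutation p = 0.798 and 0.164, adjusted p = 0.859 and 0.525) and -0.12. All are shares of the same library totals. In muscle, r between the log2 total and miR-145a-3p was 0.24 and rho 0.25 (permutation p = 0.39 and 0.374, adjusted p = 0.624 and 0.658), and 0.74 without the 2 farthest libraries. For miR-143-3p the same values were -0.07, 0.17 (permutation p = 0.805 and 0.539, adjusted p = 0.859 and 0.779) and 0.49. For miR-145a-5p they were -0.28, -0.60 (permutation p = 0.324 and 0.0213, adjusted p = 0.624 and 0.114) and -0.46. The part of depth in the muscle estimates of miR-145a-5p was not tested. In muscle miR-145a-3p rested on 8 to 284 counts per library. The part of depth in its relation to miR-143-3p was not tested.

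**Figure D5:**
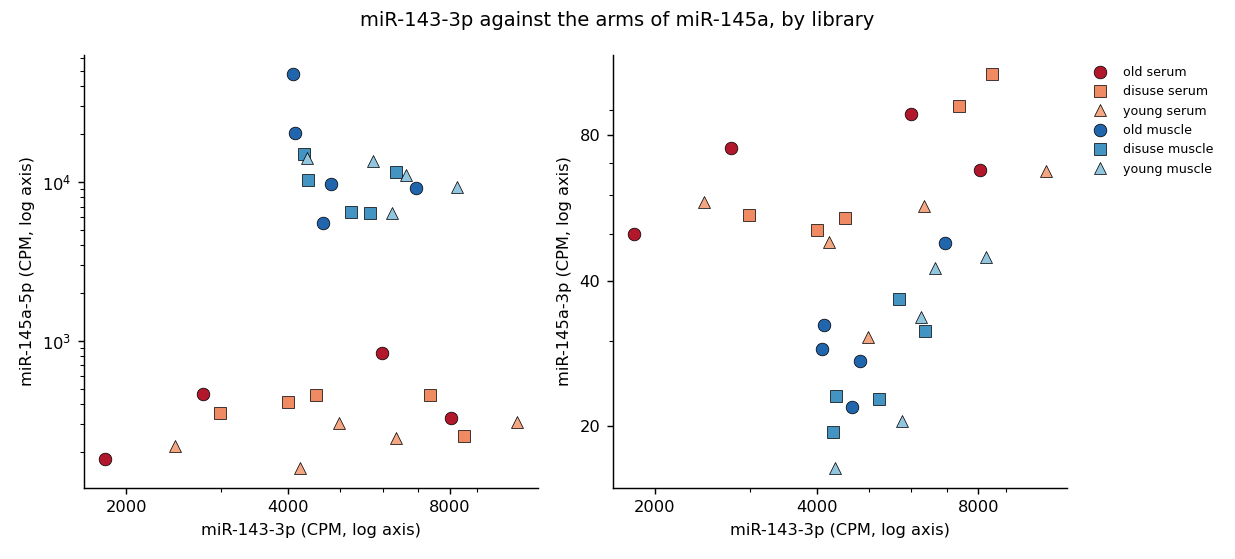
miR-145a-5p (left) and miR-145a-3p (right) against miR-143-3p, in CPM on log axes, with a symbol for each library. Muscle libraries with more miR-143-3p have more miR-145a-3p, and the serum libraries form a separate cloud far below muscle in miR-145a-5p.

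The miRNAs most like each guide strand are given as descriptions, by Pearson's r of log2 CPM, with library and depth shared by all points. In 15 muscle libraries and 340 other miRNAs, miR-143-3p was nearest to miR-101b-3p (0.81), miR-22-3p (0.81), miR-181c-5p (0.81), miR-199b-3p (0.80, of uncertain split from miR-199a-3p) and miR-21a-3p (0.77). miR-145a-5p was nearest to miR-30e-5p (0.67), miR-322-5p (0.66), miR-155-5p (0.65), miR-361-3p (0.64) and miR-15b-5p (0.64). In 14 serum libraries and 164 other miRNAs, miR-143-3p was nearest to miR-181c-5p (0.80), let-7b-5p (0.71), miR-15a-5p (0.66), let-7i-5p (0.64) and let-7g-5p (0.64). miR-145a-5p was nearest there to miR-511-5p (0.80), miR-744-5p (0.77), miR-221-3p (0.68), miR-93-3p (0.65) and miR-361-5p (0.63). On deviations from the group means, r in serum fell to 0.41 for miR-93-3p (rank 19), and in muscle miR-21a-3p was at 0.73 (rank 23), miR-155-5p at 0.63 (rank 11) and miR-15b-5p at 0.61 (rank 14). miR-181c-5p stood in the list of miR-143-3p in both sources.

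The fibroblast and mural cell list had no call between groups of a source. Of its 6 strands none was called in old against young (median log2 fold change 0.00), disuse against young (0.16) or old against disuse muscle (-0.30), where all miRNAs tested had medians of -0.01, 0.00 and -0.01. None of the 4 tested in serum was called, with medians of -0.33 in old against young, -0.13 in disuse against young and -0.25 in old against disuse serum, where all miRNAs tested had medians of -0.09, -0.09 and -0.04. miR-214-3p, the third sequence shown, held 264 ± 38.1 CPM in old, 346 ± 35.0 CPM in disuse and 233 ± 56.5 CPM in young muscle (SD, n = 5 each), with a log2 fold change of 0.63 ± 0.19 in disuse against young (SE, edgeR, adjusted p = 0.192).

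Between serum and muscle miR-214-3p and the miR-199 pair were lower. miR-214-3p was at a log2 fold change of -2.23 in old, -2.25 in disuse and -2.69 in young mice (edgeR, adjusted p = 1.01e-05, 1.87e-08 and 1.97e-06). The pair with identical letters was lower as well, with miR-199a-3p at -1.65, -1.54 and -1.46 and miR-199b-3p at -1.37, -1.57 and -1.51 in old, disuse and young mice. miR-214-5p had 7 counts in all of old serum and passed the filter there only through muscle, so no test of it is given. In young mice miR-199a-5p was higher, at 0.82 (edgeR, adjusted p = 0.0389). Among all miRNAs tested, 141 of 316 were called lower in old, 93 of 192 in disuse and 83 of 190 in young serum, so a lower call was common. Against this, miR-145a-5p stood at -5.84, -5.15 and -5.98 in the same comparisons, and the difference between the miRNAs was not tested.

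Of 7 miRNAs with described roles in the smooth muscle phenotype, none was called in the 3 muscle comparisons (medians 0.27, 0.10 and 0.03 in old against young, disuse against young and old against disuse). In serum, miR-146a-5p, an inhibitor of inflammatory signalling, was higher in old than in young mice (1.21 ± 0.30, SE, edgeR, adjusted p = 0.0184) and than in disuse mice (1.28 ± 0.30, adjusted p = 0.0304). miR-26a-5p was lower in old than in young serum (-0.96 ± 0.23, edgeR, adjusted p = 0.0184). Between serum and muscle, 4 of the 7 were higher in serum in all 3 comparisons, where 78 of 316 miRNAs were called higher in old, 73 of 192 in disuse and 62 of 190 in young mice. They were miR-146a-5p (7.05, 6.22 and 5.90 in old, disuse and young mice), miR-21a-5p (3.92, 3.64 and 3.54), miR-24-3p (2.55, 2.64 and 2.35) and miR-31-5p (2.25, 2.42 and 3.23). miR-26a-5p was lower in all 3 (-2.03, -1.35 and -1.28), and miR-222-3p in disuse mice (-0.97).

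Markers of other cells were read beside the members. The 2 endothelial miR-126a strands were called neither in muscle nor between serum groups, and summed to 3763 to 12651.5 CPM in serum and 780.2 to 2347 CPM in muscle. Of 6 leukocyte miRNAs, miR-342-3p alone was called in old against young muscle (1.17 ± 0.27, SE, edgeR, adjusted p = 0.00679), and none was called between serum groups. Skeletal muscle miRNAs had no call within a source. Of 3 erythrocyte miRNAs, miR-144-5p (-2.16 ± 0.48, SE, edgeR, adjusted p = 0.0154) and miR-451a (-0.82 ± 0.24, adjusted p = 0.0363) were lower in old than in young serum. Erythrocyte miRNAs summed to 4150 to 8347 CPM in old serum, 8579 to 12804 CPM in disuse serum and 7661 to 25311 CPM in young serum, with none at 0 throughout a group. Their part in the serum values of miR-143 and miR-145a was not tested.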

How the data were processed

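Small RNA was sequenced from 29 libraries in 6 groups, named after the sample titles. Per the labels' protocols, the TruSeq small RNA kit was used on 10 ng of RNA from 300 µl of serum (miRNeasy) or on 2 µg of Trizol RNA from muscle, and products were amplified for up to 15 PCR cycles and cut from a gel at 145 to 160 bp. Source therefore cannot be told apart from extraction and input. The submitters' processing notes name Bowtie and mm10. Which Bowtie version and miRNA annotation were used, and how reads with several matches were counted, is not given in the sources used here. No label gives a batch or a date.

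The authors deposited counts of reads by mature miRNA and library, not normalized. Of the 1183 miRNAs, 488 hold 28 values for 29 libraries. Which library lacks the value is not known, so those 488 were not used. In the 695 complete miRNAs every column holds whole counts, and 0 columns lacked a sample.

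CPM are counts scaled to the library total. Differences were tested with edgeR 4.0.16 in R 4.3.3 (glmQLFit and glmQLFTest, TMM factors, filterByExpr by group, Benjamini-Hochberg adjustment over all miRNAs tested), with calls made under an adjusted p of 0.05. One fit held the 15 muscle libraries and another the 14 serum libraries, serum was set against muscle within each age or treatment, and interactions were fitted over all 29. Each SE was taken as the absolute log2 fold change divided by the square root of F. Ratios are log2((count + 0.5)/(count + 0.5)) within a library, tested with a 2-sided exact permutation test (scipy 1.17.1) and adjusted over 21 tests. Correlations used log2 CPM with TMM factors and a prior count of 2, with 100000 permutations. The edgeR fit was also run on simulated counts with the same spread set for every miRNA, and no result here rests on that run.

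The members are named in all comparisons. Of the other lists, each miRNA with an adjusted p under 0.05 was to be named in the comparison described, with the rest given as counts. The 5 miRNAs of highest Pearson r with miR-143-3p and with miR-145a-5p were named in each source. Members and lists were chosen with earlier results of these data known. Alternatives were upper-quartile, DESeq2 and library-total scaling, no filter, a 10 CPM filter, DESeq2 1.42.0, limma-voom (limma 3.58.1), a replicate block, thinning to the shallowest library, other sets of groups in the fit, a pseudocount of 1 and leaving out each library.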

Additional observations from a re-analysis of the deposited data

Results flagged for a closer look

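In old muscle, miR-143-3p stood at 6939 CPM in library 1, apart from the other 4 libraries, which lay at 4095 to 4807 CPM. miR-143-5p stood at 56.6 CPM in old muscle 3, below the other 4 libraries of that group. Both are samples far from the others of their group, by the size of the gap relative to the range. Of 36 groups of values examined 2 were this far apart, and chance alone gives about 1 in 20.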

How the results depend on the processing

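Of 57 results, 34 kept their direction and their side of the threshold under every alternative run, among them miR-145a-5p in serum against muscle in all 3 comparisons and the higher miR-145a-3p in disuse serum. The 34 also include results that passed in no run, such as miR-143-3p in disuse against young muscle, so they are not a count of robust changes. The size moved: miR-145a-5p in old serum against old muscle ran from -6.15 with no filter to -4.94 after thinning. Estimates near 0 changed sign. In old against young muscle, miR-145a-3p was at 0.0586 with no filter, 0.0171 with a 10 CPM filter and 0.0066 with only the groups compared (-0.30 to 0.23 leaving out each library). In disuse against young serum, miR-143-3p was at 0.0176 with DESeq2's size factors, 0.12 with no filter, 0.11 with a 10 CPM filter, 0.0179 with DESeq2, 0.0269 after thinning and 0.0499 with only the groups compared (-0.22 to 0.20 leaving out each library). miR-145a-5p in the interaction with age was at -0.0201 with no filter, and the ratio of miR-143-3p to miR-143-5p in disuse against young serum was at 0.10 with a pseudocount of 1. The cause was not tested.

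Serum against muscle depended on scaling for miR-143-3p. In young mice it missed the threshold with upper-quartile factors (-0.61), DESeq2's size factors (-0.52), library totals (-0.12), DESeq2 (-0.52), limma-voom (-0.73), the replicate block (-0.73), thinning (-0.14) and all 29 libraries in the fit (-0.59). In disuse mice it missed with DESeq2's size factors (-0.24), library totals (0.0801), a 10 CPM filter (-0.17), DESeq2 (-0.24), the replicate block (-0.48), thinning (0.0185) and all 29 libraries (-0.26). In old mice it passed with no filter (-0.86) and with the replicate block (-0.67), and was at 0.06 after thinning. miR-145a-3p in old mice passed with library totals (1.04), a 10 CPM filter (0.84) and all 29 libraries (0.79). The cause was not tested.

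Leaving out each library gave these ranges where a call or a sign changed. In muscle, miR-145a-5p was at -0.28 to 0.0689 in disuse against young, and in old against disuse miR-143-5p at 0.42 to 0.69 and miR-145a-3p at -0.0737 to 0.42. In old against disuse serum, miR-145a-3p was at -0.16 to 0.0682 and miR-145a-5p at -0.36 to 0.34. In serum against muscle, miR-143-3p was at -1.07 to -0.33 in old, -0.53 to -0.16 in disuse and -0.97 to -0.44 in young mice, and miR-145a-3p at 0.61 to 1.03 in old and -0.11 to 0.33 in young mice. In the interaction with age, miR-143-3p was at -0.21 to 0.44 and miR-145a-5p at -0.18 to 0.55. The log2 ratio of miR-143-3p to miR-143-5p was at -0.78 to -0.45 in old against young muscle, -0.12 to 0.27 in disuse against young muscle, -0.55 to 0.49 in disuse against young serum and 3.05 to 3.42 in old serum against old muscle. Its serum values depend on the 0.5 added, because nearly all serum counts of miR-143-5p are 0. With a pseudocount of 1 it was at 2.46 in old serum against old muscle, outside that range. The log2 ratio of miR-145a-5p to miR-145a-3p was at -0.12 to 0.66 in old and -0.24 to 0.34 in disuse against young muscle, and -6.68 to -5.91 in old serum against old muscle. That of miR-143-3p to miR-145a-5p was at -0.33 to 0.13 in disuse against young muscle and 4.32 to 5.14 in old serum against old muscle. With 1 library fewer, the exact test of old serum against old muscle cannot pass after adjustment.

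The replicate numbers were not used to pair samples in the main fits. Correlations of same-numbered libraries ran from -0.318 to 0.447 and were not over 0.1 in every pair of any comparison. These compare deviations from the group means, which libraries of the same animal need not share, so they cannot decide whether samples are paired. No label states whether serum and muscle of the same number come from the same animal. With the replicate block, miR-145a-3p in old against disuse serum was at 0.0208. Numbers of miRNAs called under the alternatives ran from 10 to 36 in old against young muscle (20 in the text), 0 to 2 in disuse against young muscle (1), 7 to 18 in old against disuse muscle (12), 1 to 21 in old against young serum (16), 0 to 5 in disuse against young serum (0), 0 to 6 in old against disuse serum (4), 90 to 273 in old (219), 129 to 327 in disuse (166) and 93 to 270 in young serum against muscle (145), and 0 to 11 (2) and 0 to 5 (0) in the interactions with age and disuse. Depth limits the serum values: a serum value of miR-145a-3p rests on 3 to 33 counts. The 0 counts of miR-143-5p over all young serum libraries allow up to 3 counts.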

Other observations

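The table also lists miR-145b, a relative of miR-145a. It is among the miRNAs with 28 values, which were not analysed here, and those values sum to 13 counts.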
